A study of Mus musculus with 8 samples.

Results

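The 49 genes described here encode parts of the WNT and R-spondin pathway: 14 WNT ligands, 3 R-spondins, 16 receptors and co-receptors, 11 antagonists, and 5 nuclear effectors and feedback targets. They were picked by name for their place in the pathway and matched by mouse Entrez ID to 49 of the 24232 genes on the array. Of these, 33 members had a median scaled signal of at least 10 and were tested, against 15637 of all genes. Primary follicular cells, mostly granulosa cells, came from preantral follicles of 8 weeks old Swiss mice, and each replicate pooled 5 mice. In hormone-free medium with charcoal-treated serum and no androstenedione, all cells received a pDsRed plasmid (200 ng) and 12 pmol of siRNA for 24 h. The siRNA was a non-targeting pool (control siRNA) or a pool against Foxl2 (FOXL2 siRNA). Ethanol vehicle or 100 nM 17β-estradiol (E2) was then given for 10 h before lysis, at 9 days of culture. The 4 groups of siRNA and treatment held 2 arrays each, and the 2 arrays of a group came from pools grown independently. The labels do not say whether same-numbered arrays of different groups shared a pool. The main fit did not pair arrays by number, and a fit with the replicate number as a block is given as an alternative. The comparisons asked how FOXL2 depletion and E2 changed transcript levels.

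WNT proteins are secreted ligands that bind Frizzled receptors, with LRP5 or LRP6 as co-receptors in the β-catenin branch. R-spondins bind LGR receptors and protect Frizzled from removal by the ubiquitin ligases ZNRF3 and RNF43, which strengthens the signal. Secreted frizzled-related proteins and Dickkopf proteins act outside the cell, on the ligands or on the co-receptors. In the ovary, WNT4 and RSPO1 act through β-catenin to keep supporting cells on the female path, and FOXL2, a forkhead transcription factor of granulosa cells, opposes the testis factor SOX9.

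The promoters shown here are those of Rspo1 and Wnt6, the members with the largest rises over both treatments, and of Wnt5b, the only member with a called change whose listed promoter held the TCF/LEF motif. Each is the 250 bases before a transcription start in RefSeq, build GRCm38.p6, read 5′ to 3′ on the gene's strand: Rspo1 at chr4:124986180-124986429 (plus strand), Wnt6 at chr1:74771642-74771891 (plus strand) and 1 of 3 listed Wnt5b starts at chr6:119449387-119449636 (minus strand). Capitals mark CTTTGA, a core of the TCF/LEF motif, searched on both strands.
Rspo1: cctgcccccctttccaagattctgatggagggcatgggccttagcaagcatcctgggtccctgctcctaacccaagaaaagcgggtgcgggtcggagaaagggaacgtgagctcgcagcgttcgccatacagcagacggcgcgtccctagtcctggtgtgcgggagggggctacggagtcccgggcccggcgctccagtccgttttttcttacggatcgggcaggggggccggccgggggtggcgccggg
Wnt6: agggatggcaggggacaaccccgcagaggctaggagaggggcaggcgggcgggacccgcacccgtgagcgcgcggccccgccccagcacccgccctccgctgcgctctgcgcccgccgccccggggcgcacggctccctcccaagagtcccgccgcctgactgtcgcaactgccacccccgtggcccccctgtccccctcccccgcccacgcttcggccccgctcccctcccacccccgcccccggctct
Wnt5b: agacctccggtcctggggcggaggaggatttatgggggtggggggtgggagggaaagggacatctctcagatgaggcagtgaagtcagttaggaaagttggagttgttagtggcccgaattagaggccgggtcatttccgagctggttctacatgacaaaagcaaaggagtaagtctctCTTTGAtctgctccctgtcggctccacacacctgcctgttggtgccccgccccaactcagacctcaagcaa
The RefSeq table held 43 promoter windows for 33 of the 49 members. The letters CTTTGA were in 6 of the 43 windows, beside 13.8% of all 32851 windows of this length. The forkhead letters GTAAACA, also searched on both strands, were in 0 of the 43 windows, beside 3.17% of all windows. The motif that the paper found in FOXL2 peaks also allows A as the first letter and T in place of C, spellings not searched here. For FOXL2-activated targets the paper found peaks enriched within transcription units and not around their starts, so these windows leave out most such sequence. These are matches of letters in a short window and say nothing of binding.

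Transcripts were detected unevenly over the pathway. A gene counted as well above background when the scanner software marked at least 1 of its probes so. This held on 8 of 8 arrays for 31 of 49 members (63.3%), on some arrays for 5 and on no array for 13, beside 58.5% of all genes on 8 of 8 arrays. The undetected members were Wnt2, Wnt2b, Wnt3, Wnt7a, Wnt7b, Rspo2, Rspo3, Fzd10, Lgr5, Ror1, Sfrp5, Dkk1 and Lef1. Of the 3 R-spondins only Rspo1 was well above background, and of the LGR receptors among the members only Lgr4 was. On all arrays, 12 of 16 receptors, 8 of 14 ligands, 6 of 11 antagonists and 4 of 5 effectors and targets were detected.

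The label of the siRNA was checked on its target. On control siRNA arrays Foxl2 stood at a log2 scaled signal of 13.46 and 13.01 after vehicle and 12.94 and 12.76 after E2. Arrays labelled FOXL2 siRNA read 13.41, 13.39, 13.12 and 12.96, in the same order. Its change of 0.18 over both treatments (limma adjusted p = 0.334) went against the label, although its 2 probes moved apart, by 0.18 and by -0.97. Directions below therefore rest on the labels, and "higher" and "lower" compare arrays labelled FOXL2 siRNA with arrays labelled control siRNA. Sox9 was higher by 2.05 (adjusted p = 0.000302), Fst lower by a log2 change of -2.02 (adjusted p = 0.000226), Bmp2 by -1.58 (adjusted p = 0.0279) and Esr2 by -0.46 (adjusted p = 0.0168). The paper reports the same directions for these genes after Foxl2 knockdown in its other array experiment. It also reports, from qPCR, that the siRNA pools lowered their target transcripts. Granulosa markers summed to log2 signals of 16.8 to 17.0 on control arrays and 16.9 to 17.2 on FOXL2 siRNA arrays, although Fshr and Amh, which define the type, were undetected on all 8. Of the 8 granulosa markers tested, 2 were called lower over both treatments (Fst and Esr2) and 0 higher, while 4 changed upward and 4 downward. Cyp19a1, a weak signal, changed by -0.75 without overlap and was not called (limma adjusted p = 0.0820). Of the 7 oocyte markers, Zp1, Zp2, Zp3, Bmp15 and Figla were not well above background on any array, Gdf9 was on 8 of 8 arrays (6.36 to 6.79) and Ooep on 3. Theca (10.7 to 11.7 against 11.2 to 12.1), endothelial (10.1 to 10.8 against 10.6 to 10.9), macrophage (8.87 to 9.00 against 8.93 to 9.31), stroma and fibroblast (12.4 to 13.3 against 12.7 to 13.8) and smooth muscle (11.9 to 13.6 against 11.9 to 13.4) sums overlapped between the siRNAs, with 0 markers called in each list. Oocyte marker sums were 6.80 to 7.46 and 6.79 to 7.13. Such sums follow the brightest gene of a list. Over both treatments the stroma marker Col1a1 changed by 1.10 without overlap (limma adjusted p = 0.0739), Dcn by 0.31 and Lum by -0.57. The smooth muscle marker Des changed by 0.92 (adjusted p = 0.173) and Acta2 by -0.04.

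With FOXL2 siRNA, the R-spondin Rspo1 and the ligand Wnt6 rose most among the members, the Frizzled receptors moved in both directions, and 2 secreted antagonists moved apart. Over both treatments 7 of 33 members tested were higher, where 6.4% of all genes were, and 3 of 33 were lower, where 6.18% of all genes were. With vehicle 3 members were higher (3.63% of all genes) and 0 lower (2.94%), and with E2 3 were higher (2.25%) and 0 lower (2.14%). All 10 members called over both treatments were well above background on 8 of 8 arrays. The FOXL2 siRNA arrays lay wholly above the control arrays for 7 members and wholly below for 4. Such a lack of overlap held for 33.3% of the tested members and for 20.9% of all genes. The median change of the 33 members was 0.08 on the log2 scale, beside -0.0026 for all genes. In these bulk samples a change in the share of a cell type cannot be told apart from a change in RNA per cell.

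**Figure D1:**
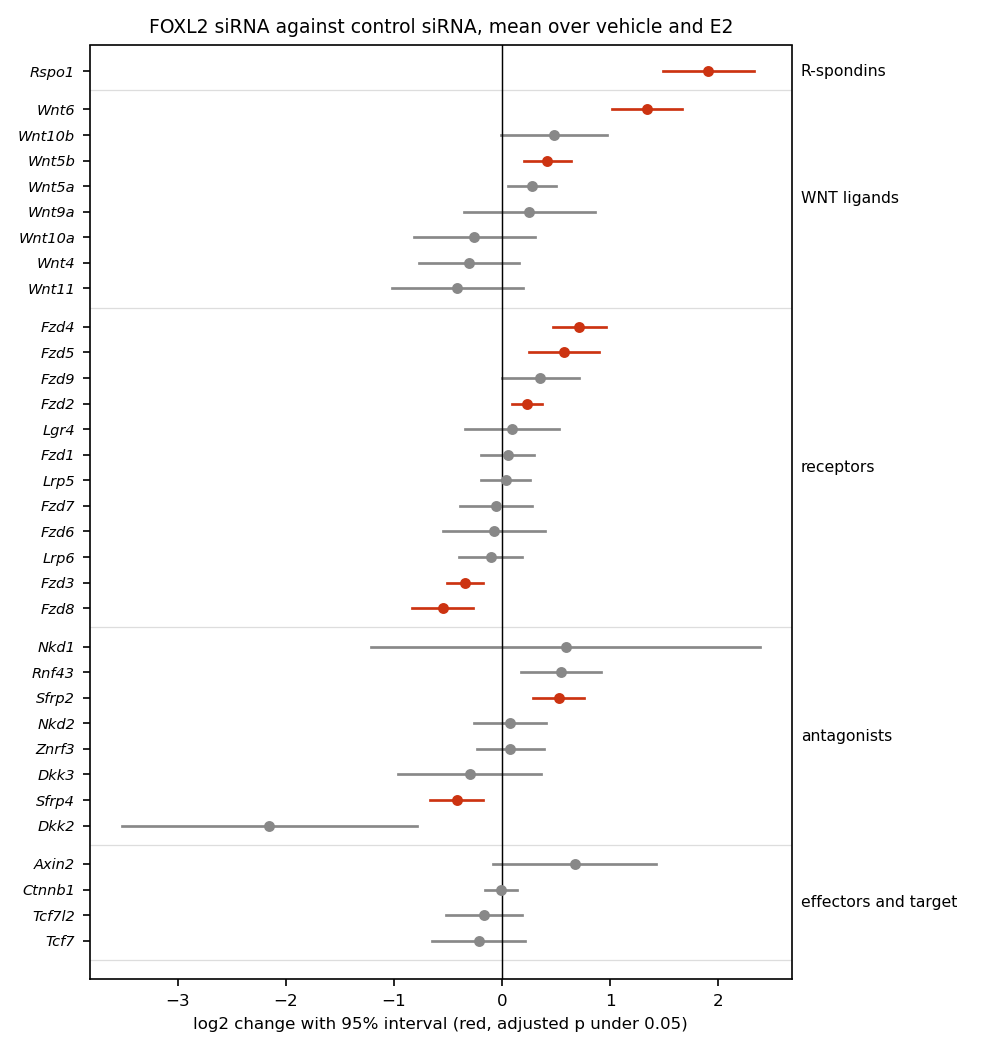
Log2 change of each of the 33 tested members in arrays labelled FOXL2 siRNA against arrays labelled control siRNA, averaged over vehicle and E2 (x axis), grouped by role, with 95% intervals from limma; red marks an adjusted p under 0.05. Rspo1 (1.91) and Wnt6 (1.34) lie farthest to the right, Fzd3 (-0.34), Fzd8 (-0.55) and Sfrp4 (-0.42) are the red points left of 0, and Dkk2 and Nkd1 carry the widest intervals.

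Rspo1, the secreted activator that binds LGR receptors, had control siRNA log2 signals of 7.20 and 6.49 after vehicle and of 7.47 and 6.91 after E2. With FOXL2 siRNA it reached 8.99 and 8.85 after vehicle and 8.96 and 8.89 after E2. All 4 FOXL2 siRNA arrays lay above all 4 control arrays, and they lay closer together than the control arrays did. Over both treatments the change was 1.91 (SE 0.18, adjusted p = 0.000817), a 3.75-fold rise. It was 2.08 with vehicle (SE 0.26, adjusted p = 0.00458) and 1.73 with E2 (SE 0.26, adjusted p = 0.0117). The call over both treatments and that with vehicle held in 8 of 8 fits that each left out 1 array, while that with E2 held in 5. It was lost without replicate 2 of control siRNA and E2 or either replicate of FOXL2 siRNA and E2, with an adjusted p of up to 0.0784. Of its receptor genes, Lgr4 changed by 0.10 (95% interval -0.34 to 0.53) and was not called. Lgr6, which is outside the members, did not pass the filter and was not tested. It was well above background on 2 arrays of control siRNA with vehicle, 1 with E2, and 0 with FOXL2 siRNA. By the bound on group means it was at least 1.66-fold lower with vehicle and 1.17-fold lower with E2.

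Wnt6, a secreted ligand best known from epithelia, was the ligand with the largest change. Its log2 signals were 5.94 and 5.53 with vehicle and 5.10 and 5.28 with E2 on the control siRNA arrays, and 6.85 and 6.65 with vehicle and 6.88 and 6.84 with E2 on the FOXL2 siRNA arrays. All 4 FOXL2 siRNA arrays were above all 4 control arrays. The rise was 1.34 over both treatments (SE 0.14, adjusted p = 0.00115), 2.54-fold on the linear scale. It was 1.01 with vehicle (SE 0.20, adjusted p = 0.0249) and 1.67 with E2 (SE 0.20, adjusted p = 0.00532), and the difference between these was not called (0.66, SE 0.28, adjusted p = 1.00). Over both treatments the call held without any 1 array, with an adjusted p of up to 0.00844. With vehicle it was lost with no filter or with only the groups compared, and without replicate 2 of control siRNA or either replicate of FOXL2 siRNA, with an adjusted p of up to 0.134. With E2 it was lost without replicate 1 of control siRNA and E2 (adjusted p = 0.0566).

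Markers of the ovarian surface epithelium, the sheet of cells that covers the ovary, moved in the same direction as Rspo1 and Wnt6. Their 4 genes summed to log2 signals of 8.99 to 9.54 on control arrays and 10.8 to 11.3 on FOXL2 siRNA arrays, with no overlap. Of the 4, Msln rose by 2.07 (adjusted p = 0.000133) and Upk3b by 1.47 (adjusted p = 0.00445), while Krt19 (0.83, adjusted p = 0.118) and Krt7 (0.68, adjusted p = 0.517) were not called. None of the 4 was below background on every array. Their part in the changes of the members was not tested.

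Wnt5b, a ligand mostly of the branch that does not use β-catenin, rose by 0.42 (SE 0.09, adjusted p = 0.0250), or 1.34-fold. It read 8.47 and 8.47, then 8.40 and 8.57 in the control groups with vehicle and with E2, and 8.94 and 8.96, then 8.69 and 9.01 in the FOXL2 siRNA groups. Its lowest FOXL2 siRNA array, 8.69, was above its highest control array, 8.57, and 7 of 8 fits without 1 array lost the call (adjusted p of up to 0.0906).

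Wnt4, the ligand that with RSPO1 marks ovarian supporting cells, did not pass the limma test with vehicle, with E2 or over both treatments. Its signals were 12.90 and 12.32 with vehicle and 12.65 and 12.41 with E2 on the control siRNA arrays, and 12.62 and 11.86 with vehicle and 12.51 and 12.07 with E2 on the FOXL2 siRNA arrays. The siRNA groups overlapped, and replicate 1 read above replicate 2 in each of the 4 groups. The change over both treatments was -0.30 (95% interval -0.77 to 0.16, adjusted p = 0.393), an interval that spans falls and small rises. With the replicate number as a block, the change over both treatments passed the threshold (adjusted p = 0.0117). Its 2 probes changed by -0.33 and -0.13.

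The other ligands tested were Wnt5a (0.28), Wnt10b (0.48), Wnt9a (0.25), Wnt10a (-0.26) and Wnt11 (-0.41). None of them was called over both treatments in the fit without a block. With the replicate number as a block, Wnt5a (limma adjusted p = 0.0076) and Wnt10b (9.1e-05) passed. For Wnt9a the array of control siRNA with vehicle, replicate 2, read 6.93, where replicate 1 read 5.72. The remaining values of Wnt9a were 5.21 and 5.71 with control siRNA and E2, 6.15 and 6.08 with FOXL2 siRNA and vehicle, and 6.12 and 6.25 with FOXL2 siRNA and E2. Wnt11 stood high on the same array, at 6.83 against 5.49 to 5.88 on the other 7. Without control siRNA, vehicle replicate 1, which leaves that array alone in its group, Wnt11 was called at -0.73, and without replicate 2 it changed by -0.09. Wnt16, the other ligand with any signal, was well above background on both arrays of control siRNA with vehicle and on no other, and its signal there was too close to the lowest detected level for a fold.

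**Figure D2:**
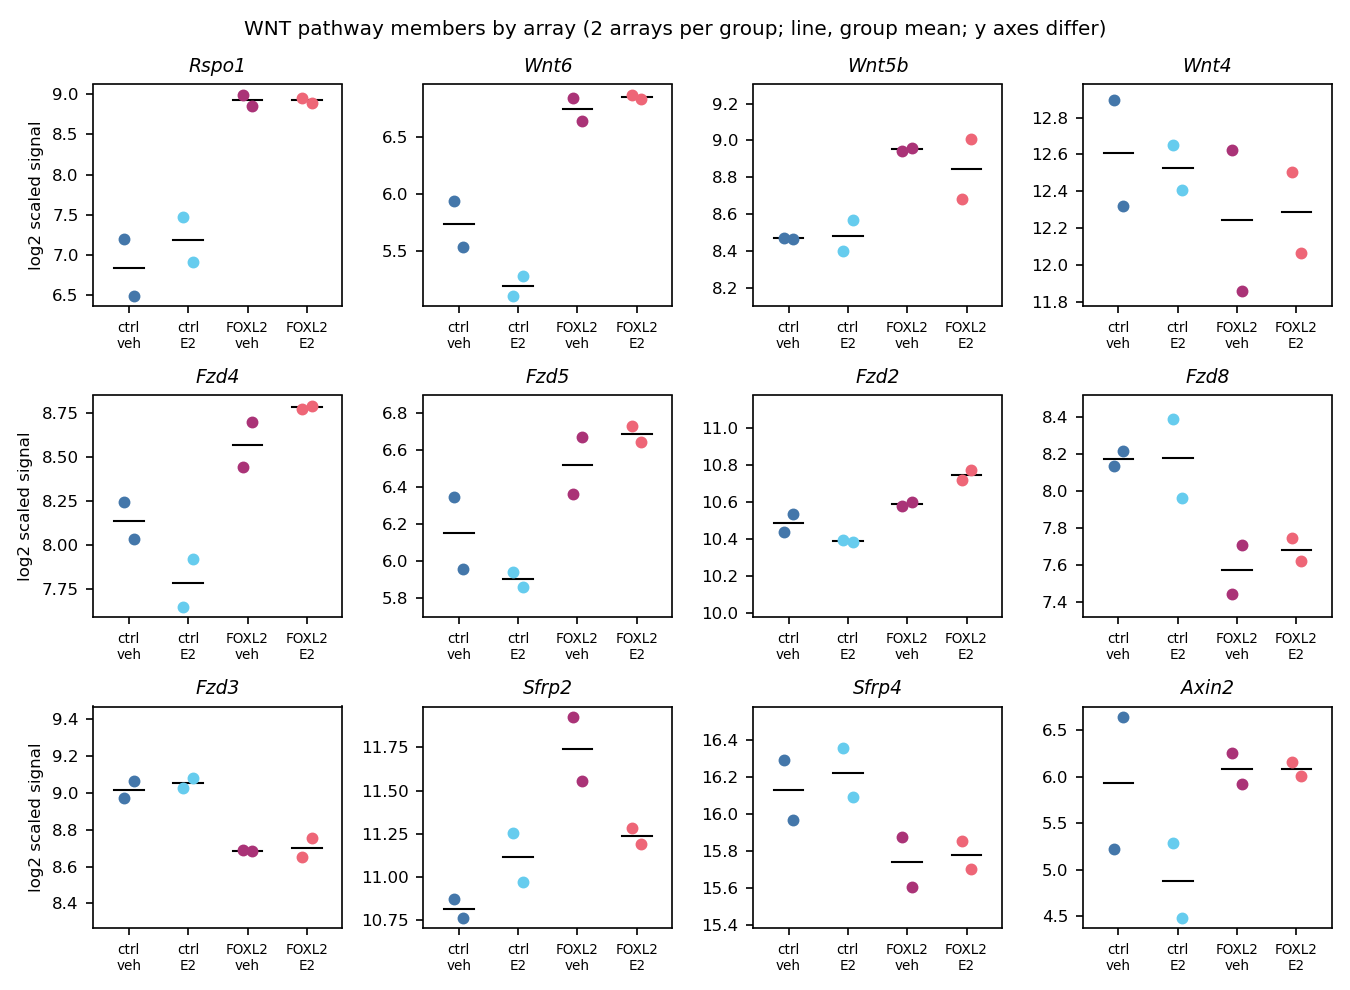
Log2 scaled signal (y axes, which differ between panels) of 12 members on each of the 8 arrays, by siRNA and treatment (x axis); points are arrays and lines are the means of the 2 arrays of a group. Rspo1, Wnt6, Fzd4 and Fzd5 are high on all 4 arrays labelled FOXL2 siRNA, Fzd8, Fzd3 and Sfrp4 are low there, Sfrp2 is high mainly with FOXL2 siRNA and vehicle, and the 2 arrays of control siRNA with vehicle lie far apart for Axin2.

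Among the Frizzled receptors, which bind WNT ligands at the cell surface, 3 rose and 2 fell. Fzd4, which also binds the non-WNT ligand norrin, rose by 0.72 over both treatments (SE 0.11, adjusted p = 0.00445), or 1.64-fold, and by 1.00 with E2 (SE 0.15, adjusted p = 0.0119). Its signals were 8.25 and 8.03 with vehicle and 7.65 and 7.92 with E2 on the control siRNA arrays, and 8.44 and 8.70 with vehicle and 8.78 and 8.79 with E2 on the FOXL2 siRNA arrays. The arrays did not overlap between the siRNAs, and the call over both treatments held in 8 of 8 fits without 1 array. With E2 alone the call was lost in 3 of 8 such fits, at an adjusted p of up to 0.0960.

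Fzd5, a receptor needed in eye development, rose by 0.57 (SE 0.14, adjusted p = 0.0343). It read 6.34, 5.96, 5.94 and 5.86 on the control arrays, vehicle first, and 6.36, 6.67, 6.73 and 6.64 on the FOXL2 siRNA arrays. The lowest FOXL2 siRNA array was thus barely above the highest control array. Its 2 probes rose alike, by 0.46 and 0.69.

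Fzd2, a receptor known to bind WNT5A, rose by 0.23 (SE 0.06, adjusted p = 0.0426). The control arrays read 10.44, 10.54, 10.39 and 10.38 and the FOXL2 siRNA arrays 10.58, 10.60, 10.72 and 10.77. The values did not overlap, although the nearest arrays were 10.54 and 10.58.

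Fzd8 and Fzd3 went the other way. Fzd8, which can signal through β-catenin, was lower by a log2 change of -0.55 (SE 0.12, adjusted p = 0.0243), at 68.4% of the control. It read 8.14, 8.21, 8.39 and 7.96 on the control arrays and 7.44, 7.71, 7.74 and 7.62 on the FOXL2 siRNA arrays. Fzd3, known for axon guidance and planar polarity, changed by -0.34 (SE 0.07, adjusted p = 0.0190). Its control arrays read 8.97, 9.06, 9.02 and 9.08 and its FOXL2 siRNA arrays 8.69, 8.68, 8.65 and 8.75. Neither receptor overlapped between the siRNAs. None of Fzd5, Fzd2, Fzd8 and Fzd3 was called with a single treatment, and without 1 array the call over both treatments was kept in 2, 0, 4 and 2 of 8 fits.

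Of the other receptors tested, Fzd1, Fzd6, Fzd7, Lrp5, Lrp6 and Lgr4 changed by between -0.10 and 0.10 and were not called. The co-receptors Lrp5 and Lrp6 changed by 0.04 and -0.10. Fzd7 has 2 probes that disagreed, at 0.65 and -0.18. Fzd9, not called either, read 6.81 and 6.94 with vehicle and 6.70 and 7.04 with E2 on the control siRNA arrays, and 7.82 and 7.21 with vehicle and 6.92 and 6.97 with E2 on the FOXL2 siRNA arrays. It thus stood high with FOXL2 siRNA and vehicle alone (0.64, adjusted p = 0.149). Ror2, a receptor tyrosine kinase for WNT5A, was well above background on 1 array, control siRNA with vehicle, replicate 1, at 6.04.

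The secreted frizzled-related proteins, which bind WNT ligands outside the cell, moved in different directions. Sfrp2 read 10.87 and 10.76 with vehicle and 11.26 and 10.97 with E2 on the control siRNA arrays, and 11.93 and 11.56 with vehicle and 11.28 and 11.19 with E2 on the FOXL2 siRNA arrays. Both arrays of FOXL2 siRNA with vehicle lay above all the others, and the groups given E2 overlapped. Sfrp2 rose by 0.92 with vehicle (SE 0.15, adjusted p = 0.0112), or 1.90-fold, and by 0.52 over both treatments (SE 0.10, adjusted p = 0.0150), whereas with E2 the change of 0.12 was not called (95% interval -0.21 to 0.46). The difference between the treatments, -0.80 (SE 0.21, adjusted p = 0.424), was not called, although it passed with the replicate number as a block. Without 1 array, 6 of 8 fits kept each of the calls.

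Sfrp4 read 16.29, 15.97, 16.36 and 16.09 on the control arrays and 15.88, 15.61, 15.85 and 15.71 on the FOXL2 siRNA arrays, vehicle first. It was lower by a log2 change of -0.42 (SE 0.11, adjusted p = 0.0414), at 74.8% of the control, and the arrays did not overlap. Only 2 of 8 fits without 1 array kept this call, and it was also lost with no filter or without a spread that follows intensity (adjusted p of up to 0.0892). Sfrp1 was well above background on 0 of 4 control arrays and on 3 of 4 arrays labelled FOXL2 siRNA, and did not pass the filter. With E2 it was at least 1.35-fold higher by the bound on group means, its signals being 4.05 and 3.92, and this was not tested.

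Dkk2, a Dickkopf protein that binds LRP5 and LRP6, was well above background on all 4 control arrays and on 0 of 4 arrays labelled FOXL2 siRNA. The control arrays read 4.07 and 5.11 with vehicle and 4.76 and 5.65 with E2, and the FOXL2 siRNA arrays 1.50 and 3.79, then 2.10 and 3.58. By the bound on group means it was at least 1.74-fold lower with vehicle and at least 3.40-fold lower with E2. Neither change was called (limma adjusted p = 0.252 and 0.196). Over the alternatives its change over both treatments ran from -2.73 to -0.41. Over both treatments it missed the threshold (adjusted p = 0.0527). It passed with normexp, with only detected genes tested and with the replicate number as a block. Dkk3, a divergent member of that family, changed by -0.30 and was not called, but passed with the replicate number as a block (limma adjusted p = 0.0056).

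The ubiquitin ligases and the naked cuticle proteins act inside the signal-receiving cell. Rnf43 changed by 0.55 (adjusted p = 0.0658) and Znrf3 by 0.08, neither of them called. Rnf43 passed with normexp and with the replicate number as a block. For Nkd1, which binds Dishevelled, 1 array of FOXL2 siRNA with vehicle, replicate 2, read 7.03, and the others read 3.40, 3.22, 3.75, 3.43, 2.97, 3.42 and 2.73. Its 2 probes changed by 1.84 and -0.41, so that no direction could be given. Nkd2 changed by 0.08.

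β-catenin itself did not separate the groups at the transcript level. Ctnnb1 changed by -0.0093 (95% interval -0.16 to 0.14) and its arrays ran from 12.07 to 12.24. Its partners Tcf7 and Tcf7l2 changed by -0.22 and -0.17 and were not called. Axin2, a direct target and feedback inhibitor of β-catenin signalling, read 5.22 and 6.64 with vehicle and 5.28 and 4.48 with E2 on the control siRNA arrays, and 6.25 and 5.92 with vehicle and 6.16 and 6.01 with E2 on the FOXL2 siRNA arrays. The FOXL2 siRNA arrays lay together while the control arrays were scattered, and the change of 0.68 was not called (SE 0.32, adjusted p = 0.236). Without control siRNA, vehicle replicate 2, the array that read 6.64, it was called at 1.03. Of its 2 probes, the one well above background on 8 of 8 arrays changed by -0.06 with vehicle and 1.22 with E2, and the other, on 6 of 8 arrays, by 1.23 and 1.15.

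Target genes of the pathway outside the members were read from a list of 13 genes that β-catenin is known to act on in other cells, most of which also answer to other signals. Of 12 tested, 6 rose and 1 fell over both treatments, where 6.4% of all genes rose and 6.18% fell. Their median change was 0.61, beside -0.0026 for all genes. Of the 12, 9 changed upward and 3 downward, among these Ccn5 (-0.70, not called). Sp5 was detected on 0 of 8 arrays and was not tested. The list was chosen with earlier results of these data known. The paper names Ccn4 and Ccn5 (as WISP1 and WISP2) and Gja1 as FOXL2 targets in its other array experiment. The shares and median above are therefore not an independent test of β-catenin output. Ccn4, a matrix-associated growth regulator, rose by 1.93 (SE 0.16, adjusted p = 0.000505). Its control arrays read 9.28, 9.41, 9.58 and 9.99 and its FOXL2 siRNA arrays 11.45, 11.94, 11.04 and 11.57. The adhesion gene Nrcam (1.59), cyclin D1 (Ccnd1, 1.58), Bmp4 (0.79), the hyaluronan receptor Cd44 (0.79) and Jun (0.53) were higher too. Gja1, which encodes the connexin of granulosa gap junctions, was lower by -1.80 (SE 0.23, adjusted p = 0.00267). With vehicle alone 4 were higher (3.63% of all genes) and 1 lower (2.94%), and with E2 alone 1 was higher (2.25%).

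**Figure D3:**
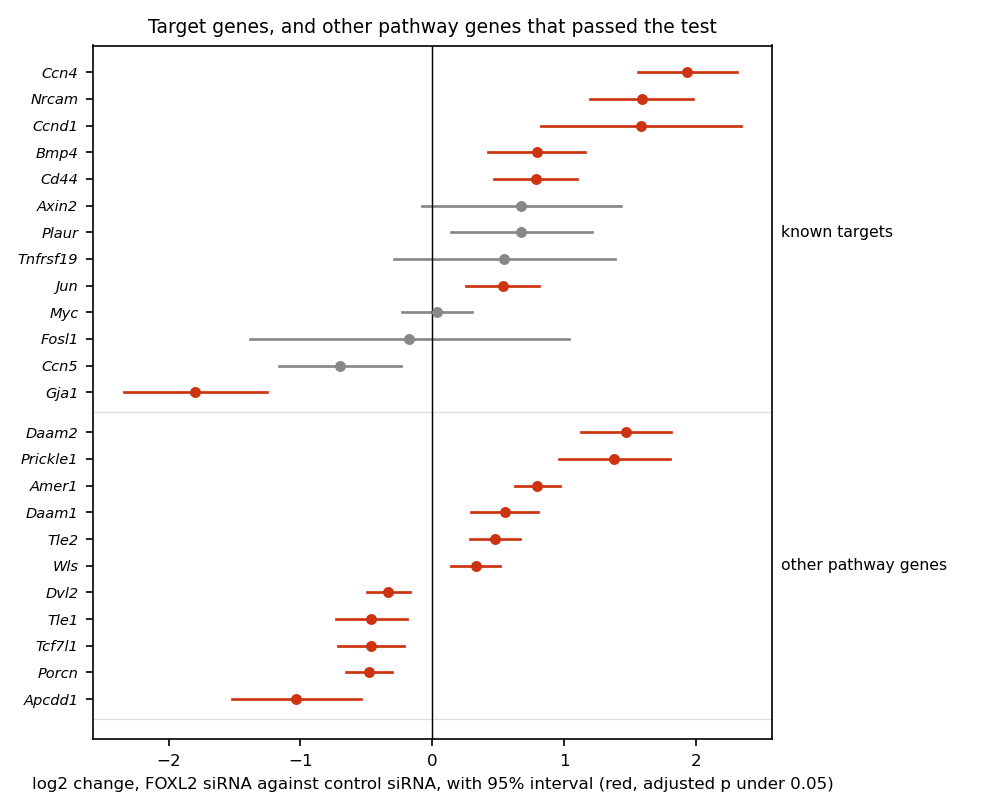
Log2 change over both treatments, arrays labelled FOXL2 siRNA against arrays labelled control siRNA (x axis), with 95% intervals from limma, of the 12 known targets tested with Axin2, and of the 11 other pathway genes that passed the test; red marks an adjusted p under 0.05. Ccn4 (1.93) and Gja1 (-1.80) lie at the ends of the target list, and Daam2 (1.47) and Apcdd1 (-1.03) at those of the other genes.

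Another 56 pathway genes, from ligand secretion to the destruction complex and the planar polarity branch, were counted in the same fit. Of 43 tested, 6 were higher and 5 lower over both treatments, where 6.4% of all genes were higher and 6.18% lower. Their median change was 0.03. The higher genes were the formins Daam2 (1.47) and Daam1 (0.55), the polarity gene Prickle1 (1.38), the β-catenin regulator Amer1 (0.80), the co-repressor Tle2 (0.48) and Wls (0.33), the carrier of WNT proteins to the surface. The lower ones were the inhibitor Apcdd1 (-1.03), Porcn (-0.48), which adds the lipid that WNT proteins need, the repressor Tcf7l1 (-0.46), Tle1 (-0.46) and Dvl2 (-0.33). With vehicle 4 were higher (3.63% of all genes) and 1 lower (2.94%). With E2 3 were higher (2.25%) and 1 lower (2.14%).

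E2 gave no called change in any member in the fit without a block. With the replicate number as a block, Sfrp2 was called for E2 with FOXL2 siRNA, and Sfrp2 and Wnt10b for the difference of E2 effects. The shares that follow are from the fit without a block. Of the genes tested, 0.0192% were called for E2 with control siRNA, 0.0128% with FOXL2 siRNA, 0.0% over both siRNAs, and 0.243% for the difference between the E2 effects, and 0 members were among them. At an unadjusted limma p under 0.05 there were 3, 2, 0 and 3 of the 33 members, beside 716, 478, 360 and 767 of all 15637 genes. Under the rule that the study applied to E2, a log2 difference of 1 or more that also exceeds 2 times the summed SDs, 0 members were selected with either siRNA, beside 0.454% of all genes with control siRNA and 0.217% with FOXL2 siRNA. On the arrays labelled control siRNA, E2 went with lower Hsd11b2, Tacc1, Angpt2 and Cbs, by log2 changes of -2.33, -1.02, -1.25 and -2.11. Of these Cbs was called (limma adjusted p = 0.0141), and Hsd11b2 (0.535), Tacc1 (0.346) and Angpt2 (0.892) were not. The study names these genes as activated by E2 on the same arrays, which for Cbs is opposite to the direction called here. It also reports Sox9 as repressed by E2, by less than 2-fold. With control siRNA Sox9 read 5.66 and 5.87 after vehicle and 6.41 and 6.70 after E2. With FOXL2 siRNA it read 8.39 and 8.46 after vehicle and 7.71 and 8.27 after E2. Every value given with vehicle or with E2, those of Sfrp2 and Fzd4 included, therefore rests on the treatment labels.

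**Figure D4:**
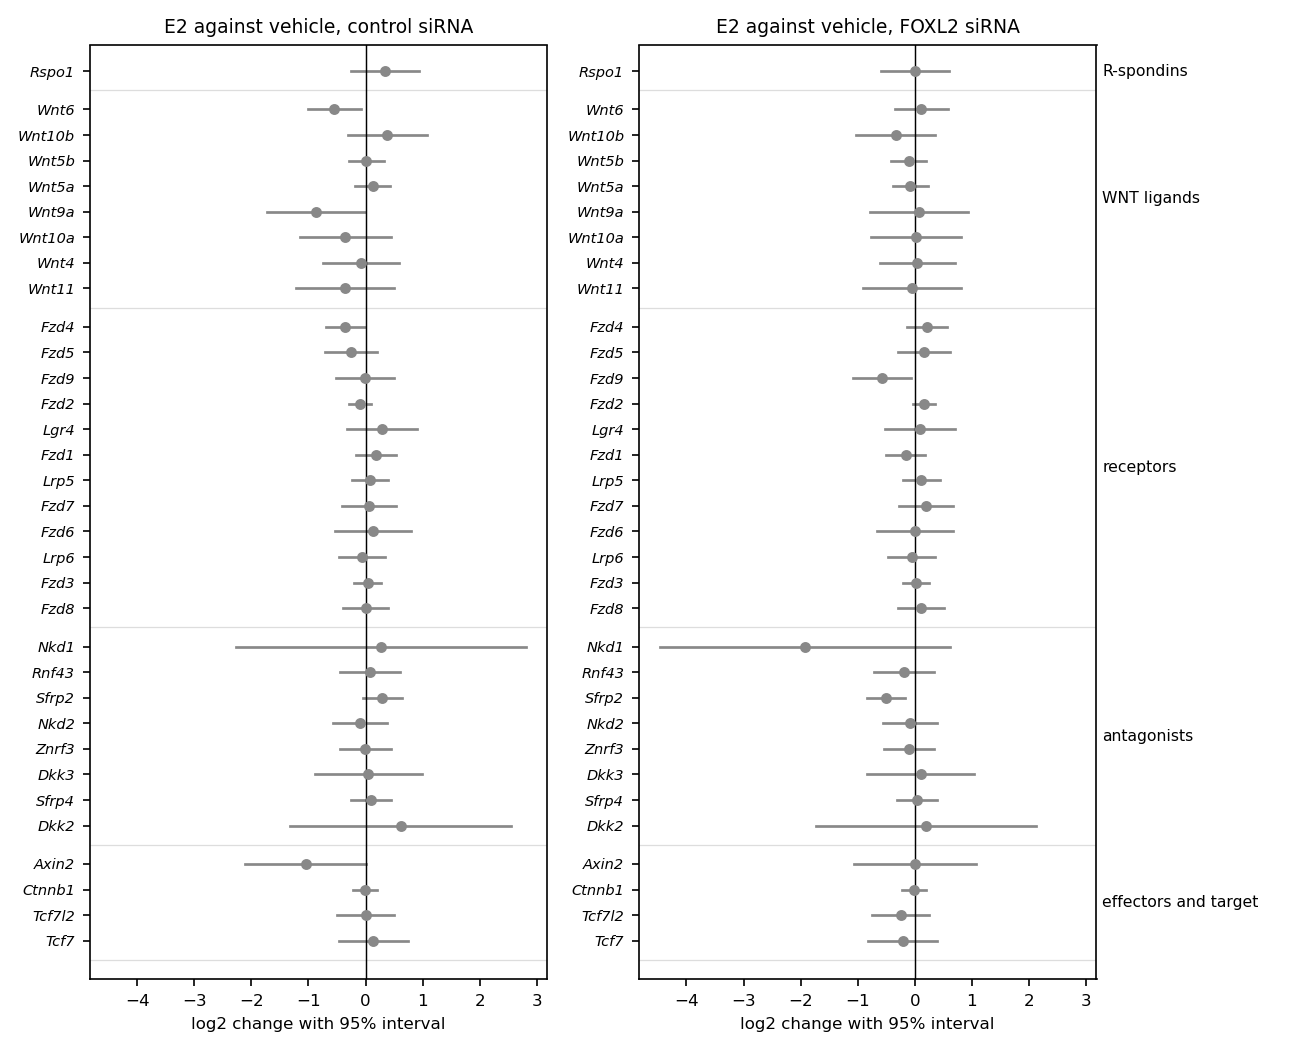
Log2 change of E2 against vehicle for the 33 tested members (x axes), with 95% intervals from limma, in arrays labelled control siRNA (left) and FOXL2 siRNA (right), genes in the same order in both panels. No member was called in this fit, which had no block. Axin2 (-1.05) and Wnt9a (-0.86) lie farthest left with control siRNA and Nkd1 (-1.93) with FOXL2 siRNA before any array was left out.

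The intervals show how large an E2 effect could have been missed. The 95% interval reached a median of 0.47 to either side of the estimate over the members, from 0.19 to 2.54. With control siRNA the interval lay within 1 log2 unit of 0 for 25 of 33 members, and with FOXL2 siRNA for 27. Rspo1 changed by 0.35 with control siRNA (95% interval -0.25 to 0.94) and by 0.0011 with FOXL2 siRNA (-0.59 to 0.60). Wnt4 changed by -0.08 (-0.74 to 0.58) and 0.04 (-0.61 to 0.70).

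The largest E2 differences that were not called rested on few arrays. Axin2 (-1.05) and Wnt9a (-0.86) with control siRNA shrank to -0.34 and -0.26 without the high array of control siRNA with vehicle, replicate 2. Nkd1 (-1.93 with FOXL2 siRNA) turned to 0.10 without the high array of FOXL2 siRNA with vehicle, replicate 2. Dkk2 changed by 0.62 with control siRNA, its 2 arrays with each treatment overlapping. Fzd9 differed by -0.57 with FOXL2 siRNA, where its groups did not overlap, and by -0.0043 with control siRNA. Wnt6 and Sfrp2 were next, at -0.55 with control siRNA and -0.50 with FOXL2 siRNA, with adjusted p of 0.972 and 1.00.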

How the data were processed

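Expression was measured on 8 one-colour Agilent arrays, 1 per sample, on 1 slide scanned once, so no batch could be tested. The deposited scanner files hold spot intensity values, background-subtracted by the authors' software (Agilent Feature Extraction 11.5.1.1, array design on mm9); the authors' value table is on a log2 scale. Here 3671 control spots and 42 non-uniform probes were left out and signals were divided by the array's 75th percentile (275 to 367 units) and put on a common level. Gene values are linear means over the probes that the authors' table gives an Entrez ID, and genes with a median scaled signal under 10 were dropped. Per array, 51.4 to 55.6% of probes were well above background, and 0 were saturated. Log2 values were fitted as 4 group means over 8 arrays with limma 3.58.1 (R 4.3.3; lmFit, eBayes with trend; two-sided; Benjamini-Hochberg over all genes, threshold 0.05), which was tested on simulated data. With 2 arrays per group, p-values measure the spread between these pools, and the number of arrays limits precision. Members, lists and tests were chosen with earlier results of these data known. Members called, the 5 with the largest change in either factor, Wnt4 and Rspo1 were given by array. Where a group had no array with detected signal, a bound was used: the bright mean over the mean of, per array, the higher of the lowest detected signal and its own. Alternatives were normexp (on median signals), quantile and median scaling, filters, the brightest probe, no trend, the authors' table, a replicate block and leaving out each array. Positions are given only for promoters and are those of the RefSeq table's own build (GRCm38.p6), which is not the build of the array design.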

Additional observations from a re-analysis of the deposited data

How the results depend on the processing

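No alternative turned the sign of a called change. Over both treatments, 7 of the 10 members called passed in all 9 alternatives other than leaving out arrays, Fzd2 and Fzd5 lost their call with normexp, Fzd2 and Sfrp4 without the intensity trend, and Fzd5 and Sfrp4 with no filter. Of the 10 members called over both treatments, only Rspo1, Wnt6 and Fzd4 kept their call in all 8 fits that left out 1 array. Some of these fits also called members outside the 10, namely Wnt5a, Wnt11, Dkk2, Rnf43, Nkd1 and Axin2. With vehicle Rspo1 kept its call in all 8 fits, while Wnt6 and Sfrp2 did not. With E2 none of Rspo1, Wnt6 and Fzd4 did. For E2 and for the difference of E2 effects no member was called in any of them. A fit with 1 array left in a group assumes that it varies like the others.

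Replicate numbers are shared between groups, but the labels do not say that a number is a shared pool. The deviations of same-numbered arrays from their group means correlated at 0.33 to 0.44. The smooth muscle marker Acta2 split by number in every group, at 11.9 to 12.0 on replicate 1 arrays and 13.3 to 13.5 on replicate 2 arrays. With the replicate number as a block the calls came to 15 members with vehicle, 10 with E2 and 16 over both treatments. Those added over both treatments were Wnt4 (limma adjusted p = 0.0117), Wnt5a, Wnt10b, Dkk2, Dkk3 and Rnf43. There was 1 call for E2 with FOXL2 siRNA (Sfrp2) and 2 for the difference of E2 effects (Sfrp2 and Wnt10b). Over all genes the block took the counts from 1026, 686 and 1967 with vehicle, with E2 and over both treatments to 2928, 2329 and 4326, and from 3, 2, 0 and 38 for E2 with control siRNA, with FOXL2 siRNA, over both and their difference to 182, 96, 8 and 332. Without the intensity trend the counts of 1026, 686 and 38 came to 633, 379 and 15, with only the groups compared that of 1026 to 585, and with no filter that of 38 to 9. Without 1 array the lowest counts were 309, 130, 1181 and 4. For E2 with either siRNA, leaving out arrays and the alternatives other than the block gave between 0 and 7 genes. Arrays have no read depth, and signal over background limits the 16 members that did not pass the filter, of which 13 were not detected.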
